A study of Bos taurus with 3 samples.

Results

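The cells described here carried transcripts of both *IGFBP5* (insulin-like growth factor binding protein 5) and *GJA1* (connexin 43) in the rumen epithelium of dairy cows. They were chosen by their counts: at least 3 UMIs of *IGFBP5* (ENSBTAG00000054218) and at least 2 UMIs of *GJA1* (ENSBTAG00000001835) in the same cell. A UMI, or unique molecular identifier, is a tag that marks 1 captured transcript, so that its PCR copies are counted once. Of the 20728 cells, 782 were double-positive, with 307 of 3369 in cow 1, 251 of 7401 in cow 2 and 224 of 9958 in cow 3. The study took ventral rumen sac tissue from 3 lactating adult Holstein dairy cows under 1 condition, freed the epithelial cells with enzymes and made 1 droplet library per cow. There was no treated or control group, so every comparison was between cells of the same cows, with counts summed per cow and n = 3 cows. The deposited cells carry no cell type names, and those that the authors had assigned to types other than epithelium were removed before deposit.

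The rumen wall is a stratified squamous epithelium, in which basal cells divide, spinous cells above them are joined by desmosomes and gap junctions, and granule and cornified cells face the lumen. Connexin 43 builds gap junction channels, through which small solutes pass between neighbouring cells, and IGFBP5 is a secreted protein that binds insulin-like growth factors. Volatile fatty acids (VFAs) from microbial fermentation cross this epithelium, helped by monocarboxylate and anion carriers and by sodium-proton exchange. Part of the butyrate is turned into ketone bodies in the mitochondria of these cells.

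The 3 libraries held between 38912809 and 104189434 UMIs. Cow 1, with the fewest UMIs, had the largest share of double-positive cells, 9.11% (exact 95% binomial interval 8.16% to 10.1%). The share was 3.39% in cow 2 (2.99% to 3.83%) and 2.25% in cow 3 (1.97% to 2.56%), and the mean was 4.92% ± 3.68 (SD, n = 3). These intervals cover counting error only, and they did not overlap between the cows. When each cell was thinned to 5000 UMIs, the shares fell to 3.34%, 0.502% and 0.573%, with a mean of 1.47% ± 1.62 (SD, n = 3). The thinned intervals of cow 2 (0.352% to 0.694%) and cow 3 (0.429% to 0.748%) overlapped, and that of cow 1 (2.71% to 4.08%) lay above both. This thinning left out 586, 228 and 704 shallower cells, among them 2, 0 and 3 double-positive cells. A total of 35 cell barcodes occurred in more than 1 library, and 3 double-positive cells carried one of them. The rule on raw UMIs favours deep cells. The median depth of the double-positive cells was 18558, 18858 and 14715 UMIs in cows 1 to 3, against 9627, 11782 and 9663 in all other cells.

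Both choosing genes are described here without a test, because they set the membership. The double-positive cells had a median of 7 UMIs of *IGFBP5*, with a maximum of 67, and 127 of them stood at the threshold of 3. Their median for *GJA1* was 6 UMIs, with a maximum of 54, and 123 stood at the threshold of 2. They held 18.5% of all *IGFBP5* UMIs and 60.7% of all *GJA1* UMIs of the data set. At least 1 *IGFBP5* UMI was found in 60.6% of all cells, and in 52.2% of the 3544 cells with at least 2 UMIs of *DLK2*, a marker that the study uses for granule cells. For *GJA1* these shares were 10.1% and 4.51%, at median depths of 10514 UMIs in all cells and 10051.5 UMIs in the *DLK2* cells. A single *IGFBP5* UMI was therefore found in most cells of either kind, and a single *GJA1* UMI was rare in both.

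Levels below are given as CPM, the UMIs of a gene per 1000000 UMIs of the class of cells, in cows 1, 2 and 3 in that order. Fold changes are log2 values from edgeR on the sums per cow, with the cow as a block. The value after ± is a standard error derived from the fold change and the F statistic of its test. A gene was called at a P_adj (p-value adjusted over all genes tested) under 0.05 and a change beyond 0.25. CPM are scaled by total UMIs alone and fold changes also by TMM, a scaling between sums, so small changes can differ in sign between them. Across 11055 genes tested, 1770 were higher (16% of the genes) and 1731 lower (15.7%) in the double-positive cells than in all other cells, with a median log2 fold change over all genes of -0.03. Calls this frequent are the background against which the gene groups below are to be read. Without the block, 211 genes were higher and 211 lower. When sums were scaled by library size alone, the median over all genes moved to -0.17, and 1212 genes were higher and 2742 lower.

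Other properties of the cells moved with the membership. The median mitochondrial share of a cell's UMIs was 25.6%, 15.4% and 16.5% in the double-positive cells and 16.3%, 10.7% and 12.3% in all other cells. Of the 13 mitochondrial transcripts, 12 were higher and 1 lower, with a median log2 fold change of 0.42. *CYTB*, which encodes a subunit of respiratory complex III, had a log2 fold change of 0.77 ± 0.05, and *COX1*, a subunit of complex IV, one of 0.76 ± 0.04. Without the block edgeR called 0 of the 13, with 4 at an unadjusted p under 0.05, and DESeq2 with the block called 10 higher. Restricted to cells of 10000 to 20000 UMIs in both classes, 1151 genes were higher and 1028 lower. The part of depth and mitochondrial share in the results was not tested further.

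The cells fitted the name of spinous cells only in part. Of the 15 spinous and early differentiation genes tested, 13 were higher and the other 2 not called, with a median log2 fold change of 1.14. Without the block 7 were called higher. *S100A8*, a calcium-binding protein of the suprabasal layers, had 1145, 617 and 1463 CPM in the double-positive cells and 349, 191 and 325 in all other cells. Its log2 fold change was 2.00 ± 0.10 (P_adj = 1.75e-06, edgeR), and the values did not overlap. *KRT6A*, an inducible suprabasal keratin, had 398, 677 and 1463 CPM against 219, 213 and 455, with a log2 fold change of 1.55 ± 0.13 (P_adj = 2.41e-05, edgeR). It was higher within every cow, although the range of the double-positive cells overlapped that of the others. *KRT10*, the classical spinous keratin, was at a low level in both classes, 36.0, 41.3 and 35.7 CPM against 24.6, 24.1 and 21.8, and was higher by 0.82 ± 0.09 on the log2 scale (P_adj = 9.37e-05, edgeR).

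Basal keratins were present in these cells. Of the 16 basal genes tested, 3 were higher, 6 lower and the others not called, with a median log2 fold change of -0.21. The count was 2 lower without cow 2 and in cells of 10000 to 20000 UMIs and 3 lower with DESeq2, and without the block edgeR called 0, with 2 at an unadjusted p under 0.05. *KRT5*, the type II keratin of basal cells, had 3595, 4522 and 6449.8 CPM in the double-positive cells and 3719, 3932 and 6962 in all other cells. Its log2 fold change of 0.15 ± 0.05 was not called (P_adj = 0.0556, edgeR), nor was that of its partner *KRT14*, -0.03 ± 0.06 (P_adj = 0.742, edgeR). The CPM of *KRT5* was higher in the double-positive cells of cow 2 only, and its fold change ran from 0.01 to 0.19 over the alternatives. *KRT15*, another basal keratin, was higher, with 5596, 6878 and 6729 against 4643, 5591 and 5236 CPM and a log2 fold change of 0.45 ± 0.05 (P_adj = 0.000132, edgeR). *COL17A1*, which anchors basal cells to the basement membrane, had a log2 fold change of -0.44 ± 0.08 and *ITGB1*, an integrin subunit, one of -0.62 ± 0.08, both called lower. Because *KRT5* and *KRT14* were not called lower and *KRT15* was higher, the cells are called double-positive below rather than by a cell type.

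*SLC16A1*, which encodes the monocarboxylate transporter MCT1, was named as a marker together with the choosing genes and is given without a test. It had 1103, 764 and 1244 CPM in the double-positive cells and 419, 283 and 425 in all other cells, a log2 difference of 1.60 ± 0.07. After thinning to 5000 UMIs, 96.6% ± 3.28 (SD, n = 3) of the double-positive cells still had an *SLC16A1* UMI, against 81.4% ± 6.98 of the *IGFBP5*-positive cells without *GJA1*, 80.5% ± 1.91 of the *GJA1*-positive cells without *IGFBP5* and 64.5% ± 9.47 of the remaining cells. Thinning leaves out cells under 5000 UMIs. For the *GJA1*-positive cells without *IGFBP5* of cow 1, the share was 73.5% with all cells at full depth and 81.6% after thinning. *BSG*, the chaperone that brings MCT1 to the cell surface, had 2259.6, 2576 and 2924 CPM against 914, 977 and 1275. It was higher in 3 of 3 cows without overlap, with a log2 fold change of 1.44 ± 0.06 (P_adj = 5.02e-07, edgeR). *SLC4A9*, an anion exchanger of the bicarbonate transporter family, had 37.6, 30.9 and 41.3 CPM against 17.7, 17.9 and 16.4. Here too all 3 cows were higher, with a log2 fold change of 1.2 ± 0.12 (P_adj = 7.01e-05, edgeR).

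Of the 12 VFA transport genes tested, 4 were higher and 3 lower, with a median log2 fold change of 0.25, and the count of 4 takes in *SLC16A1*, *BSG*, *SLC4A9* and *SLC26A2*. Without the block 3 were called higher and 1 lower, and DESeq2 with the block called 3 higher and 2 lower. The sulphate and anion exchanger *SLC26A2* was higher by 0.42 ± 0.15 on the log2 scale (P_adj = 0.0487, edgeR), with 62.2, 16.0 and 26.2 against 41.8, 18.3 and 21.4 CPM. It was higher in 2 of 3 cows, and its call was lost without cow 1 (0.17) and with DESeq2. *SLC16A11*, a member of the monocarboxylate carrier family, was lower, with a log2 fold change of -0.95 ± 0.19 (P_adj = 0.0035, edgeR), and so was the prostaglandin carrier *SLCO2A1*, with -0.99 ± 0.30 (P_adj = 0.0285, edgeR). The call of *SLCO2A1* was lost without cow 1 (-0.91) and without cow 2 (-0.98). The count of 3 lower includes *SLC16A7*, which encodes the carrier MCT2. It had 1, 1 and 1 UMIs in all double-positive cells of cows 1, 2 and 3 and 6.55, 2.94 and 5.29 CPM in the other cells, through which alone it passed the filter on low counts, so nothing is read from its call. *SLC16A9*, *SLC16A13*, *SLC26A6* and *SLC4A7* were not called, at log2 fold changes of 0.29, -0.36, 0.22 and -0.09. *SLC16A3*, *SLC26A3*, *SLC22A7*, *SLC5A8* and *SLC5A12* had too few UMIs to be tested.

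**Figure D1:**
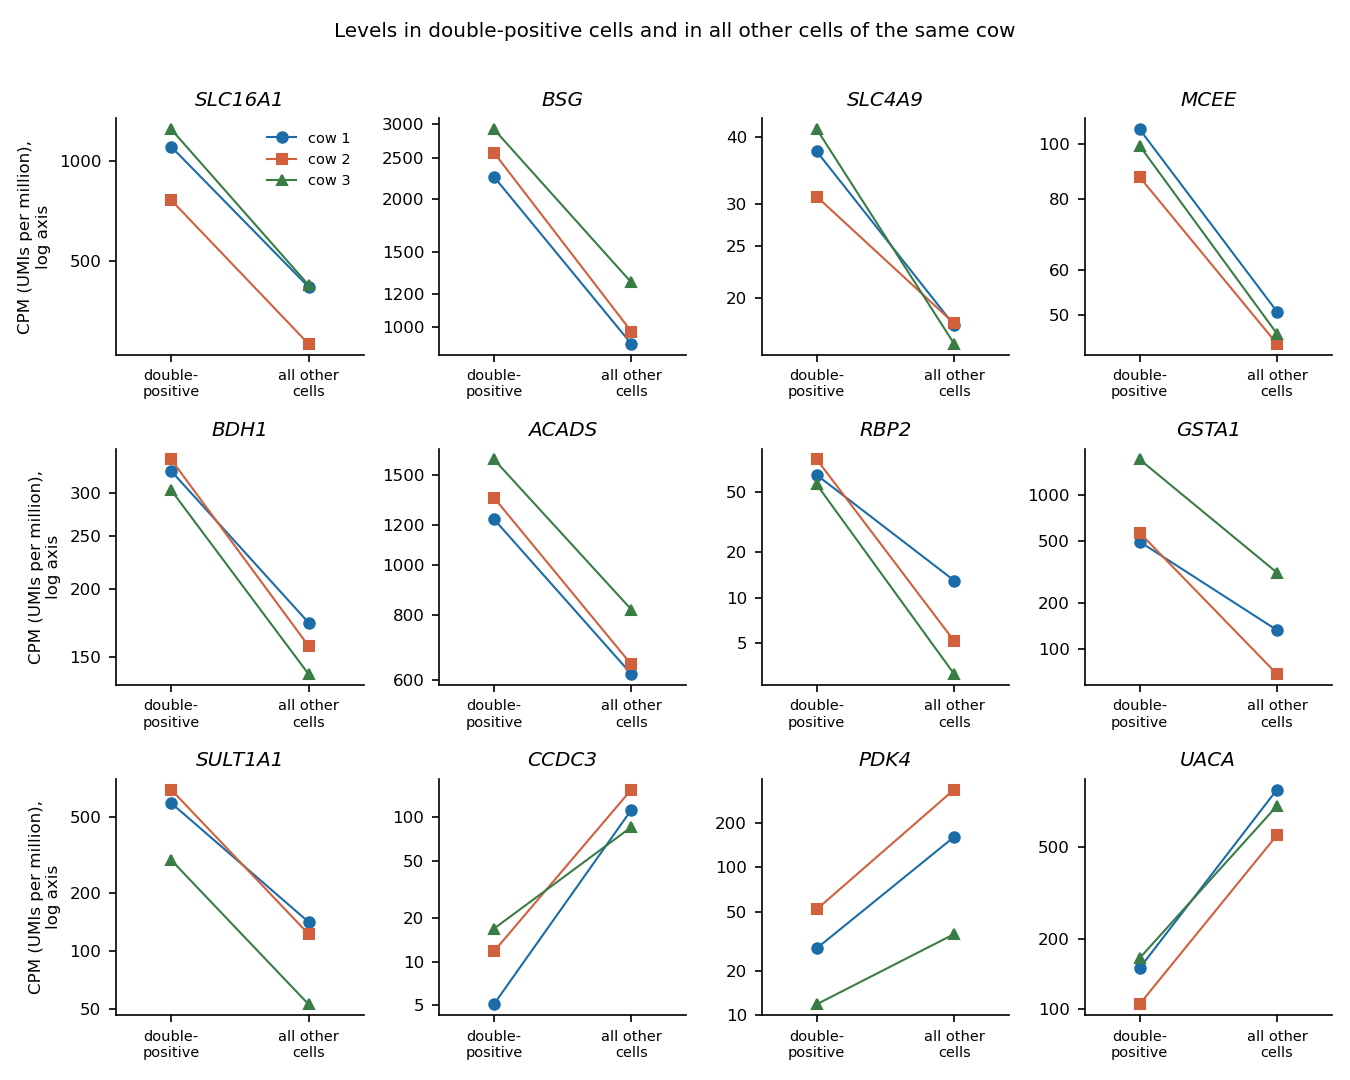
Levels of 12 genes in CPM (vertical log axes) in double-positive cells and in all other cells, with 1 line per cow. *SLC16A1*, *BSG*, *SLC4A9*, *MCEE*, *BDH1*, *ACADS*, *RBP2*, *GSTA1* and *SULT1A1* lie higher and *CCDC3*, *PDK4* and *UACA* lower in the double-positive cells of each of the 3 cows.

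Among genes of sodium and proton handling, 5 of the 8 tested were higher and 1 lower, with a median log2 fold change of 0.43. *SLC9A2*, which encodes the sodium-proton exchanger NHE2 and is another of the markers, had 19.4, 7.43 and 11.2 CPM in the double-positive cells and 3.09, 1.09 and 1.14 in all others, a log2 difference of 3.02 ± 0.20 that is described without a test, although the count of 5 takes it in. At 5000 UMIs per cell it was detected in 5.72% of double-positive cells on average, so most of them had no UMI of it. *SLC9A3R1*, a scaffold protein of the exchanger NHE3, was higher by 1.09 ± 0.10 (P_adj = 3.47e-05, edgeR). *ATP1B1*, a beta subunit of the sodium pump, was lower, with 2.02, 2.74 and 1.69 against 12.3, 8.05 and 7.85 CPM and a log2 fold change of -1.99 ± 0.23 (P_adj = 0.000124, edgeR). Carbonic anhydrases, which interconvert carbon dioxide and bicarbonate, gave 3 higher and 1 lower of 7 tested. Without the block edgeR called 0 of the 7, with 2 at an unadjusted p under 0.05, and 1 higher and 1 lower were called in sodium and proton handling. With the block the carbonic anhydrases gave 2 higher and 1 lower by DESeq2, 2 higher and 3 lower without TMM, and 2 higher and 2 lower without cow 1. The cytosolic *CA1* was higher by 1.35 ± 0.10 (P_adj = 7.84e-06, edgeR) and the membrane-bound *CA12* by 1.12 ± 0.08 (P_adj = 6.79e-06, edgeR). The values of both genes overlapped between the classes, with each cow higher in its own double-positive cells. Against the *GJA1*-positive cells without *IGFBP5*, *SLC9A3R1* was lower, with a log2 fold change of -0.85 ± 0.14 (P_adj = 0.00115, edgeR). That call held in 9 of 10 alternatives. Of the 8 genes of sodium and proton handling tested there, 0 were higher and 1 lower. Of all genes, 2.58% were higher and 2.3% lower in that comparison. *CA1* (0.14) was not called there, and *CA12* was higher by 0.71.

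Genes of VFA activation and ketone body synthesis were higher almost throughout, with 15 higher and 1 lower of 18 tested and a median log2 fold change of 0.66. *BDH1*, which reduces acetoacetate to beta-hydroxybutyrate, had 329, 346 and 304 CPM in the double-positive cells and 174, 157 and 139.8 in all other cells, with a log2 fold change of 1.2 ± 0.07 (P_adj = 2.94e-06, edgeR). The cows lay close together within each class, and the classes stood apart. *ACADS*, the short-chain acyl-CoA dehydrogenase that acts on butyryl-CoA, was higher by 1.15 ± 0.06 (P_adj = 1.44e-06, edgeR). *MCEE*, an epimerase of propionate breakdown, was higher by 1.19 ± 0.08 (P_adj = 5.31e-06, edgeR). *ACAT1*, a mitochondrial thiolase, had a log2 fold change of 0.90 ± 0.10 and was called higher. *ACSS2*, a cytosolic acetyl-CoA synthetase, was higher by 0.70 ± 0.11, and *ACSS1* and *ACSS3* had too few UMIs to be tested. Without the block, 5 of these genes were called higher. Against the *GJA1*-positive cells without *IGFBP5*, *ACAT1* was higher by 0.59, a call that held in 6 of 10 alternatives. *ACADS* (0.22), *MCEE* (-0.07) and *ACSS2* (0.68) were not called there.

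Of 19 genes linked to the nuclear receptors PPAR and to fatty acid oxidation, 10 were higher and 2 lower, with a median log2 fold change of 0.38. The fatty acid binding protein *FABP4* had 345, 254 and 223 CPM in the double-positive cells and 51.2, 72.1 and 51.2 in all others, with a log2 fold change of 2.37 ± 0.16 (P_adj = 5.79e-06, edgeR). Its relative *FABP5* was higher by 1.32 ± 0.07 (P_adj = 1.44e-06, edgeR). The members that were lower were *PDK4*, a kinase that shuts down pyruvate dehydrogenase, and *ANGPTL4*, a secreted inhibitor of lipoprotein lipase. *PDK4* had 28.3, 52.0 and 11.8 CPM in double-positive cells and 161, 338 and 35.4 in all other cells, with a log2 fold change of -2.31 ± 0.16 (P_adj = 7.39e-06, edgeR), and *ANGPTL4* one of -1.21 ± 0.15 (P_adj = 0.000249, edgeR). Among enzymes of the citric acid cycle, 11 of 16 were higher, with a median of 0.39, among them *OGDH* (0.71), *SDHA* (0.64) and *IDH3B* (0.60). Without the block 1 of the 19 PPAR-linked genes was called higher, and edgeR called 0 of the 16 cycle enzymes, with 5 at an unadjusted p under 0.05. With the block DESeq2 called 10 cycle enzymes higher, scaling without TMM 6 higher and 1 lower, and the window of 10000 to 20000 UMIs 7 higher. Against the *GJA1*-positive cells without *IGFBP5*, 2 of the 19 PPAR-linked genes and 1 of the 16 cycle enzymes were higher, and 0 lower. Of all genes tested against that class, 2.58% were higher and 2.3% lower. *FABP5* (-0.14) was not called there.

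Genes that bind or modify retinoids gave 7 higher and 1 lower of 10 tested, with a median log2 fold change of 0.64. The summed list had 2640, 2298 and 1500 CPM in the double-positive cells and 2119, 1719 and 2035 in all others. The sum was thus higher in cows 1 and 2 and lower in cow 3. *RBP2*, a cellular retinol binding protein, had 64.3, 81.6 and 55.7 CPM in the double-positive cells and 12.9, 5.17 and 3.13 in all other cells. Its log2 fold change, 3.59 ± 0.29 (P_adj = 1.57e-05, edgeR), was the largest among the genes with a symbol and at 50 CPM or more on average. *LRAT*, which esterifies retinol, was higher by 1.10 ± 0.14 (P_adj = 0.000292, edgeR), and *BREH1*, a retinyl ester hydrolase, by 2.13 ± 0.13 (P_adj = 3.47e-06, edgeR). *DHRS3*, which reduces retinal to retinol, was lower, with a log2 fold change of -1.2 ± 0.10 (P_adj = 1.9e-05, edgeR). Without the block 1 of the 10 was called higher and 1 lower.

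Glutathione and redox defence genes gave 16 higher and 1 lower of 23 tested, with a median log2 fold change of 0.42. *GSTA1*, a glutathione transferase, had 497, 568 and 1700.1 CPM in the double-positive cells and 132, 68.6 and 313 in all others, with a log2 fold change of 2.61 ± 0.16 (P_adj = 2.94e-06, edgeR). Cow 3 had the highest level in both classes. *GSTO1*, *MGST3* and *PRDX6*, which belong to the same defence, were higher by 1.42 ± 0.08, 1.37 ± 0.07 and 1.21 ± 0.07 on the log2 scale. The sulphotransferase *SULT1A1*, which conjugates phenols, was higher by 2.48 ± 0.09 (P_adj = 4.63e-07, edgeR), with 589.9, 692 and 298 against 142, 123 and 53.0 CPM. Without the block 3 of the 23 defence genes were called higher. The summed list had 8422, 10997 and 17009 CPM in the *GJA1*-positive cells without *IGFBP5* and 7276, 9084 and 10697 in the double-positive cells. Against that class 1 of 24 genes tested was higher in the double-positive cells and 3 were lower. Of all genes tested in that comparison, 2.58% were higher and 2.3% lower. *GSTA1* (-0.73) and *PRDX6* (-0.82) were called lower there, with calls that held in 6 and 3 of 10 alternatives. *GSTO1* was higher there by 0.41, a call that held in 4 of 10 alternatives, and *MGST3* (-0.07) was not called. Glutathione transferases, sulphotransferases, keratins and defensins belong to families of similar sequence, and the deposited counts do not show how reads shared between copies were assigned.

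**Figure D2:**
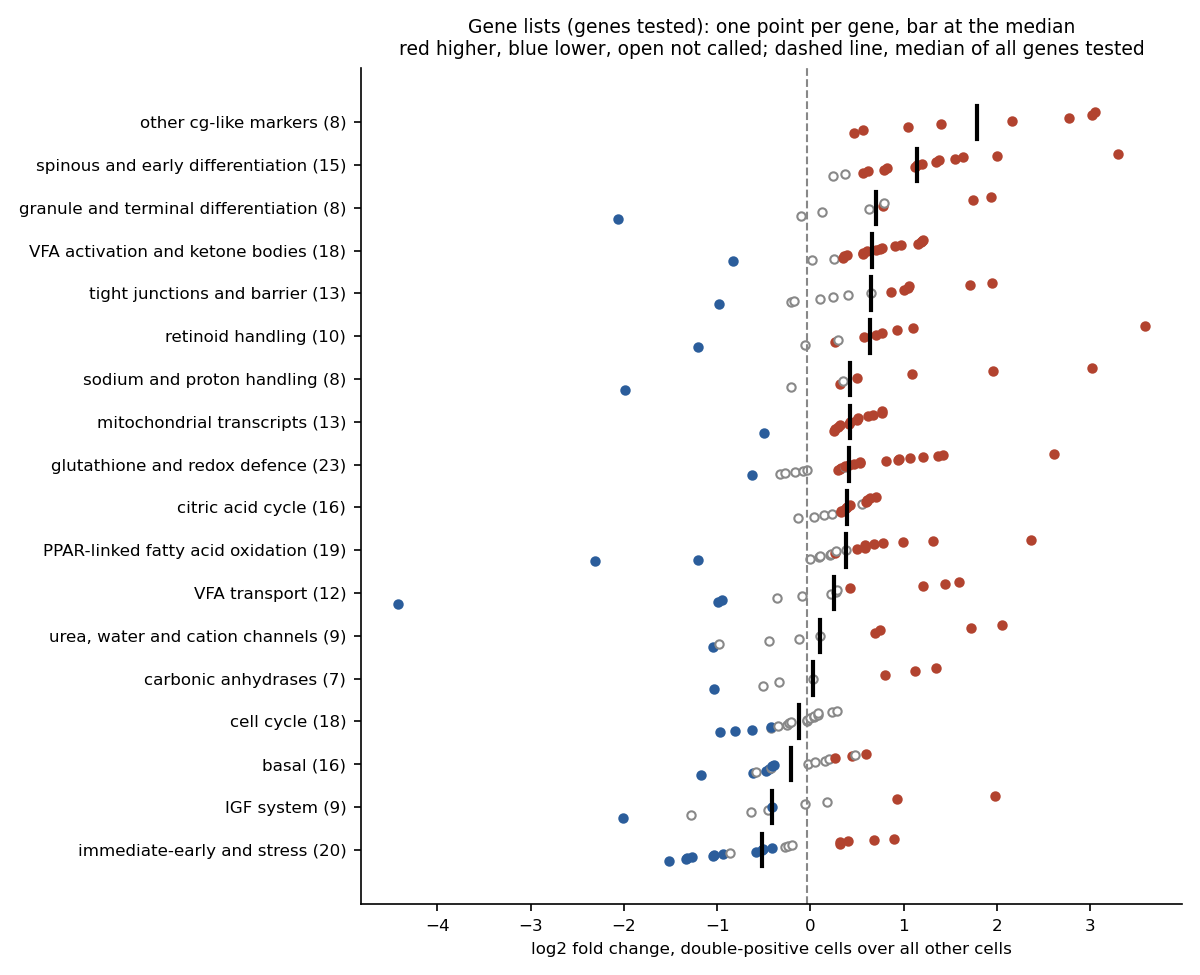
Log2 fold changes of the genes of each list between double-positive cells and all other cells (horizontal axis), with 1 point per gene, filled where called (red higher, blue lower), and a bar at the median. Most genes of the spinous, VFA activation, citric acid cycle and glutathione lists lie to the right of the median of all genes (-0.03), and those of the immediate-early list spread to both sides.

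Of 13 tight junction and barrier genes, 6 were higher and 1 lower, with a median of 0.65. *TMEM79*, a membrane protein of the epidermal barrier, had 123, 105 and 131 CPM in the double-positive cells and 42.2, 30.5 and 30.3 in all others, with a log2 fold change of 1.95 ± 0.11 (P_adj = 2.07e-06, edgeR). Against the *GJA1*-positive cells without *IGFBP5* it was lower by -0.54 ± 0.14 (P_adj = 0.0363, edgeR), a call that held in 4 of 10 alternatives. *CLDN4*, a claudin of tight junctions, was higher by 1.05 ± 0.24 (P_adj = 0.00733, edgeR). *SLC14A1*, which encodes the urea transporter UT-B, had 240.2, 163 and 233 CPM against 66.4, 42.6 and 59.6 and a log2 fold change of 2.06 ± 0.07 (P_adj = 4.63e-07, edgeR), and it led the urea, water and cation channel list, in which 4 of 9 were higher and 1 lower. The 8 other marker genes of *GJA1*-bearing spinous cells were all higher, with a median of 1.78. Among them *BPIFA2C*, a secreted defence protein, had 670.1, 341 and 481 CPM against 145, 33.4 and 53.0 and a log2 fold change of 3.05 ± 0.18 (P_adj = 2.79e-06, edgeR), whereas *TM4SF1*, a tetraspan membrane protein, changed by 0.47 ± 0.10 (P_adj = 0.00527, edgeR). Several of these marker genes come from the study's own description of the same cells, and their count is no independent evidence. Without the block 1 of the tight junction and barrier genes, 1 of the channel genes and 3 of these 8 markers were called higher. The barrier list had 3 higher without cow 2, in cells of 10000 to 20000 UMIs and with the rule per 10000 UMIs, and the channel list 2 higher without cow 1 and without cow 2.

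Of the 9 other genes of the insulin-like growth factor system, 2 were higher and 2 lower, beside 16% and 15.7% of all genes tested. Without the block 0 were higher by edgeR (2 at an unadjusted p under 0.05, and 2 called by DESeq2 with the block) and 1 lower. *IGFBP3*, another carrier of insulin-like growth factors, had 34.7, 29.1 and 16.6 CPM in the double-positive cells and 12.8, 8.15 and 2.80 in all other cells, with a log2 fold change of 1.98 ± 0.18 (P_adj = 3.12e-05, edgeR). *IGFBP4* was higher by 0.93 ± 0.22 (P_adj = 0.0102, edgeR). *IGFBP6* and *IGFBP7* were lower, with log2 fold changes of -0.41 ± 0.14 and -2.01 ± 0.28 (P_adj = 0.0432 and 0.000411, edgeR). The call of *IGFBP4* was lost without cow 1 (0.69), and that of *IGFBP6* without cow 2 (-0.46) and without cow 3 (-0.17). Among 4 other connexin and pannexin genes tested, *GJB2* (connexin 26) was higher, with 14.5, 12.1 and 67.5 against 10.2, 2.59 and 6.83 CPM and a log2 fold change of 2.29 ± 0.42 (P_adj = 0.00241, edgeR). Its fold change ran from 1.35 to 3.08 over the alternatives. Only 10.7%, 6.37% and 24.6% of the double-positive cells of cows 1, 2 and 3 had a UMI of it. *GJB5* and *PANX1* were not called, at -0.31 and 0.90.

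The 12 genes with the largest increase among those with a symbol and at 50 CPM or more comprised *RBP2*, *BPIFA2C*, *GSTA1*, *SULT1A1*, *FABP4* and *BREH1*, given above, and 6 others of varied function. These were *URAD*, an enzyme of uric acid breakdown (2.43 ± 0.12), *COX8B*, a subunit of cytochrome c oxidase (2.26 ± 0.14), *GFRA2*, a receptor for neurturin (2.20 ± 0.10), the secretoglobin *SCGB1C1* (2.20 ± 0.10), *C18H19orf33* (2.11 ± 0.08) and the beta-defensin *DEFB* (2.10 ± 0.09). *COX8B* differed widely between cows, with 2007, 959 and 569 CPM in the double-positive cells and 643, 212 and 96.1 in all others, so that the ranges overlapped although each cow was higher.

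The genes with the largest decrease, among those with a symbol and at 50 CPM or more in the other cells on average, also had varied roles. *CCDC3*, a secreted protein, had 5.05, 11.7 and 16.9 CPM in the double-positive cells and 113, 156 and 85.6 in all others, with a log2 fold change of -3.36 ± 0.27 (P_adj = 1.57e-05, edgeR). *UACA*, a protein with ankyrin repeats, had 149.9, 105 and 166 against 887, 564 and 754 CPM and a log2 fold change of -2.25 ± 0.09 (P_adj = 5.02e-07, edgeR). Neither gene overlapped between the classes. The matrix protein *THBS1* (-2.93 ± 0.28), the chemokine *CXCL3* (-2.87 ± 0.19), the Notch ligand *DLL1* (-2.41 ± 0.13), the lipid phosphatase *PLPP3* (-2.05 ± 0.12) and *DLK2* (-2.06 ± 0.15) were among the others. *DLK2*, the granule cell marker of the study, had 12, 22.1 and 11 CPM in the double-positive cells and 77.8, 87.4 and 37.5 in the other cells, and 42 double-positive cells had at least 2 UMIs of it. It belongs to the granule and terminal differentiation list, in which 3 genes were higher and 1 lower of 8 tested, with a median of 0.70. Genes of this list had few UMIs in the double-positive cells, so neither the count nor the median is read as a direction. The summed list, which takes in *DLK2*, had 67.9, 79.2 and 44.7 CPM in the double-positive cells against 117, 107 and 54.0. In each cow *DLK2* differed by more CPM than the sum did. The lower sum was therefore that of *DLK2*, and the other genes of the list together were not lower in any cow.

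Immediate-early genes, which respond within minutes to stress and to tissue dissociation, were lower for 11 and higher for 5 of the 20 tested, with a median of -0.52. Without the block edgeR called 0 of them, with 1 at an unadjusted p under 0.05, DESeq2 with the block called 9 lower and 4 higher, and without TMM 12 were lower and 2 higher. *JUNB* and *ZFP36*, a transcription factor and an RNA-binding protein of this group, had log2 fold changes of -1.32 ± 0.21 and -1.27 ± 0.15 (P_adj = 0.000956 and 0.000184, edgeR), and the cows' values overlapped between the classes for both. *GADD45B*, another stress gene, was lower, with -1.52 ± 0.11 (P_adj = 7.84e-06, edgeR). Of the 18 cell cycle genes, 4 were lower and the others not called, with a median of -0.12. *RRM2*, *TYMS* and *PCNA*, which serve DNA synthesis, had log2 fold changes of -0.97 ± 0.24, -0.81 ± 0.15 and -0.62 ± 0.14 and were called lower, *RRM2* no longer without cow 3 (-0.50). The count depended on the settings, with 13 lower under a rule per 10000 UMIs, 10 in cells of 10000 to 20000 UMIs, 2 higher and 2 lower without cow 3, and 0 by edgeR without the block (0 at an unadjusted p under 0.05), where DESeq2 with the block gave 3. *MKI67*, a marker of dividing cells, had -0.23 ± 0.22 (P_adj = 0.457, edgeR) and was not called.

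To set the 2 choosing genes apart, the double-positive cells were compared with cells that had only 1 of them. Cells with at least 3 *IGFBP5* UMIs and no *GJA1* UMI numbered 505, 1363 and 1859, with a median depth of 14825, 14515 and 11060 UMIs. Against these, 1507 of 10135 genes were higher (14.9%) and 1452 lower (14.3%) in the double-positive cells, and 156 and 151 without the block. The comparison uses the same double-positive sums as the one above, so the 2 sets of values are not independent.

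In the spinous list 13 genes were higher, with a median of 1.19, while *KRT5*, *KRT14* and *KRT15* had log2 fold changes of 0.00 ± 0.08, -0.02 ± 0.12 and 0.09 ± 0.11, and none of the 3 was called. *SLC16A1* stood at 539, 383 and 551 CPM in the *IGFBP5*-positive cells without *GJA1*, a log2 difference of 1.14 ± 0.08 from the double-positive cells. *BDH1* had 214, 203 and 164 CPM there and was higher in the double-positive cells by 0.82 ± 0.08 (P_adj = 3.31e-07, edgeR). In the VFA activation list 12 genes were higher, with a median of 0.45, and in the citric acid cycle list 7. *BPIFA2C* and *RBP2* had the largest increase among the genes with a symbol and at 50 CPM or more. *BPIFA2C* had 47.2, 7.64 and 13.5 CPM in the cells without *GJA1* and a log2 fold change of 4.84 ± 0.26 (P_adj = 1.66e-10, edgeR), and *RBP2* had 5.83, 2.58 and 2.24 and 4.44 ± 0.29 (P_adj = 2.53e-09, edgeR). *GJB2* was nearly absent without *GJA1*, with 1, 2 and 7 UMIs in these cells of cows 1, 2 and 3. *SLC14A1* was higher by 1.77 ± 0.08, and the calprotectin subunit *S100A9* by 2.07 ± 0.49. *CCDC3* and *UACA* were lower, with log2 fold changes of -2.60 ± 0.24 and -2.01 ± 0.13, as were the growth factor receptor *FGFR2* (-1.80 ± 0.11), the cadherin *CDH13* (-1.69 ± 0.09) and the quinone reductase *NQO2* (-1.30 ± 0.11).

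The second class, cells with at least 2 *GJA1* UMIs and no *IGFBP5* UMI, was small, with 68, 63 and 77 cells. Its median depth was 8566.5, 18121 and 13173 UMIs, and in cow 1 23 of its 68 cells had under 1% mitochondrial UMIs, against 7 of the 307 double-positive cells. Of 10135 genes tested, 261 were higher (2.58%) and 233 lower (2.3%) in the double-positive cells. Without the block 6 and 5 were called, and without all cells under 1% mitochondrial UMIs 195 and 140. The 8 genes with the largest decrease against all other cells were not called against this class. Their log2 fold changes were 0.91 for *CCDC3*, 0.18 for *UACA*, 0.59 for *PDK4* and 0.95 for *DLL1*. Those of *PLPP3*, *DLK2*, *THBS1* and *CXCL3* were 0.24, 0.95, -0.41 and -0.67. Of the 20 immediate-early genes tested, 0 were higher and 0 lower.

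In the spinous list 12 genes were lower in the double-positive cells, with a median of -1.0, and in the basal list 8 were higher and 1 lower, with a median of 0.77. *KRT15* had 3011, 2313 and 2326 CPM in the *GJA1*-positive cells without *IGFBP5*, below every double-positive value, with a log2 fold change of 1.45 ± 0.12 (P_adj = 1.9e-07, edgeR). *LAMB3*, a chain of the basement membrane protein laminin 332, had 87.6, 85.1 and 84.1 CPM in the double-positive cells and 23.9, 22.3 and 14.6 in the cells without *IGFBP5*, with a log2 fold change of 2.24 ± 0.16 (P_adj = 7.74e-08, edgeR). *COL17A1* was higher by 1.30 ± 0.11 (P_adj = 5.67e-07, edgeR). *KRT14*, in contrast, was lower, with a log2 fold change of -0.86 ± 0.12 (P_adj = 0.000201, edgeR). *JAG2*, a Notch ligand, and *ASCL2*, a transcription factor, were higher by 1.72 ± 0.17 and 1.55 ± 0.27, and so were *FPGS*, which retains folate in cells (1.57 ± 0.18), and *CCDC80*, a matrix protein (1.56 ± 0.10). *IGFBP6* was higher by 1.42 ± 0.28 (P_adj = 0.00407, edgeR), and *IGFBP3* had 1, 13 and 0 UMIs in the *GJA1*-positive cells without *IGFBP5* of cows 1, 2 and 3, so its fold is not given.

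*WFDC18*, *GJB2*, *TGM3* and *KRT6A* were lower in the double-positive cells than in the *GJA1*-positive cells without *IGFBP5*. *WFDC18*, a whey acidic protein of the protease inhibitor kind, had 28.0, 67.9 and 79.6 CPM in the double-positive cells and 707, 558 and 1526 in the others, with a log2 fold change of -3.85 ± 0.25 (P_adj = 1.9e-08, edgeR). *GJB2* had 309, 107 and 438 CPM there and a log2 fold change of -3.19 ± 0.28 (P_adj = 6.83e-07, edgeR). The transglutaminase *TGM3*, which cross-links the cornified envelope, had a log2 fold change of -2.33 ± 0.22 (P_adj = 1.29e-06, edgeR). *KRT6A*, a keratin, had 2120.2, 1822 and 6227 CPM in the cells without *IGFBP5* and a log2 fold change of -1.86 ± 0.15 (P_adj = 2.5e-07, edgeR). The protease inhibitor *SPINK5* had 1, 2 and 12 UMIs in the double-positive cells of the 3 cows and 52, 5 and 137 in the cells without *IGFBP5*. *A2ML1*, another protease inhibitor, had 4, 2 and 21 UMIs against 206, 27 and 46. At these counts neither their folds against the *GJA1*-positive cells without *IGFBP5* nor a count of that comparison over the granule and terminal differentiation list is given. Without the cells under 1% mitochondrial UMIs *WFDC18* stood at -2.94, *GJB2* at -1.91 and *KRT6A* at -1.42, all still called. *BPIFA2C*, *S100A8*, *MAL* and *CALML5*, which were lower at -2.07, -0.97, -3.87 and -3.63, were no longer called without them, at -0.85, -0.51, -1.99 and -1.63 (P_adj = 0.128, 0.109, 0.0876 and 0.0547, edgeR).

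In the VFA transport list 5 genes were called higher than in this class, a count that takes in the marker *SLC16A1*. Among them were *SLC16A9* and *SLC4A7*, whose calls held in 2 and 5 of 10 alternatives. In the VFA activation list 5 were higher and 1 lower. *SLC16A1* had 606, 461 and 527 CPM in the *GJA1*-positive cells without *IGFBP5*, and its log2 difference from the double-positive cells was 1.07 ± 0.09. *SLC4A9* was higher in the double-positive cells by 0.89 ± 0.20 (P_adj = 0.0137, edgeR) and *BSG* by 0.52 ± 0.08 (P_adj = 0.000447, edgeR). *BDH1* had a log2 fold change of 0.33 ± 0.09 (P_adj = 0.0414, edgeR), with values that overlapped between the classes, and its call held in 1 of 10 alternatives. *SLC14A1* had 261, 179.7 and 211 CPM and 0.09 ± 0.09 (P_adj = 0.677, edgeR), *RBP2* had -0.45 ± 0.28 (P_adj = 0.456, edgeR), and neither was called. *SLC9A2*, given without a test, differed by -0.31 ± 0.26. *SLC16A1* was thus above both single-positive classes in all 3 cows without overlap, and *KRT15* and *LAMB3* were near the level of the *IGFBP5*-positive cells. The 12 genes with the largest increase against all other cells were mixed against the *GJA1*-positive cells without *IGFBP5*. *URAD* (1.36), *GFRA2* (0.92), *DEFB* (0.63) and *SULT1A1* (0.38) were higher. The calls of *DEFB* and *SULT1A1* held in 6 and 3 of 10 alternatives, and those of *URAD* and *GFRA2* in 9 each. *GSTA1* (-0.73), *BREH1* (-0.54), *C18H19orf33* (-0.43) and *BPIFA2C* were lower, and *FABP4* (0.22), *COX8B* (0.39), *SCGB1C1* (0.27) and *RBP2* were not called. Without cells under 1% mitochondrial UMIs *BREH1* and *C18H19orf33* were no longer called.

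**Figure D3:**
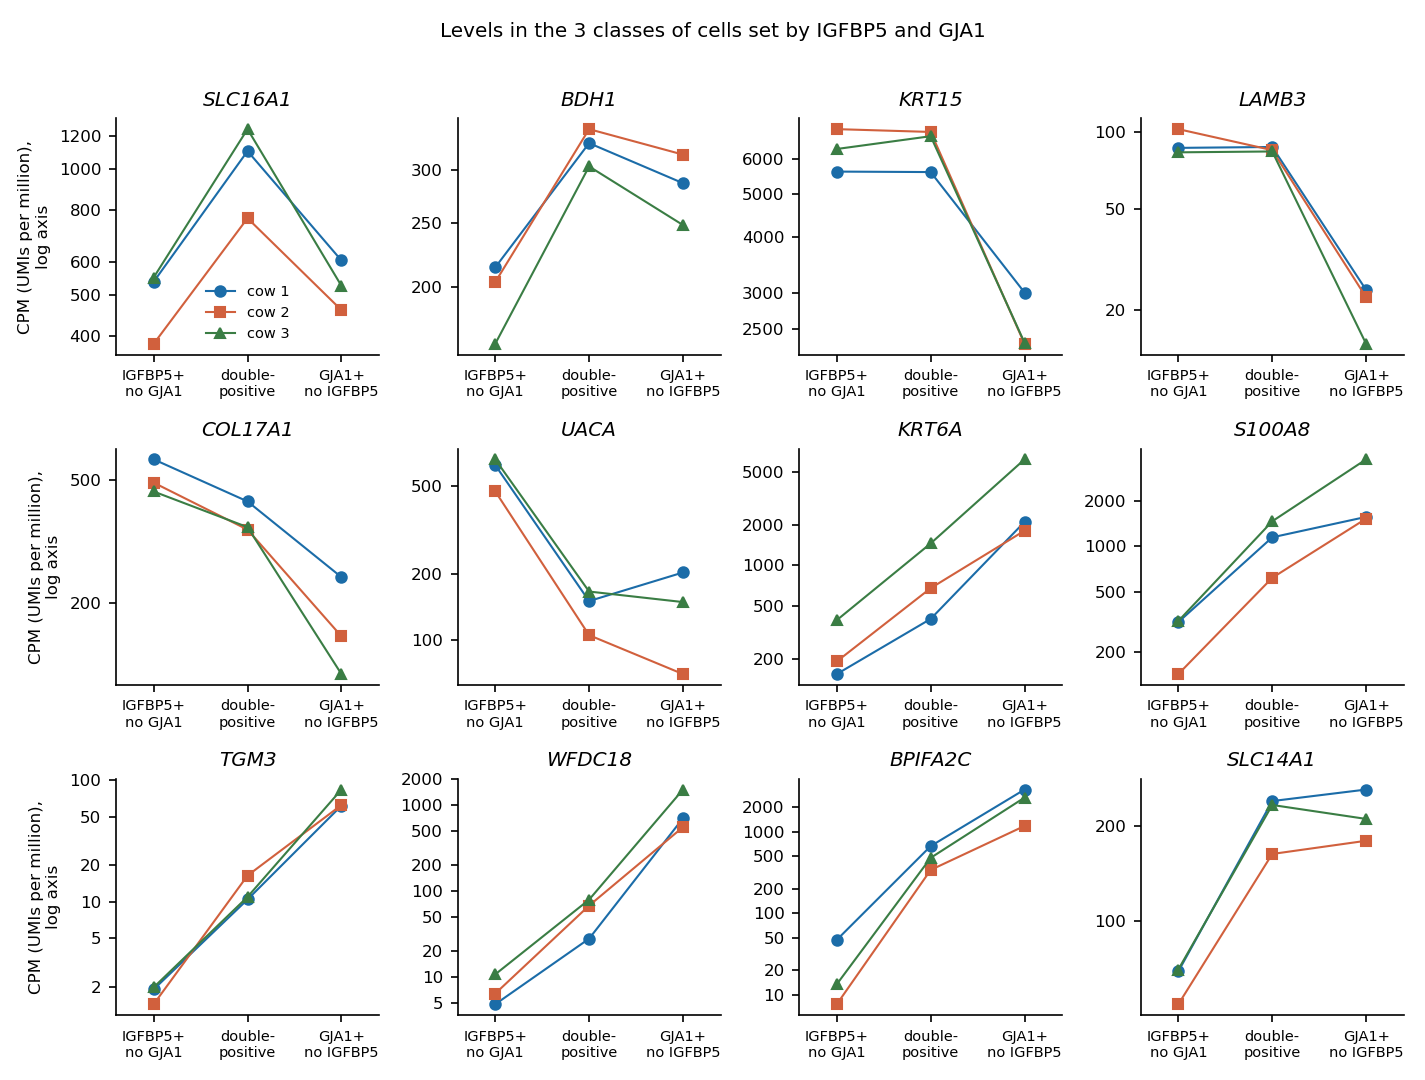
Levels of 12 genes in CPM (vertical log axes) in *IGFBP5*-positive cells without *GJA1*, double-positive cells and *GJA1*-positive cells without *IGFBP5*, with 1 line per cow. *SLC16A1* is highest in the middle class of each cow, *KRT15* and *LAMB3* drop in the third class, and *KRT6A*, *S100A8*, *TGM3*, *WFDC18* and *BPIFA2C* are higher in each next class from the first class to the third in each cow.

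Levels were also followed across the number of UMIs of each choosing gene, as a description. Among cells with at least 2 *GJA1* UMIs, *SLC16A1* was 606, 461 and 527 CPM in cells with no *IGFBP5* UMI, 948, 655 and 1079.6 with 3 to 4 and 1217, 929.8 and 1386 with 10 or more. *KRT15* went from 3011, 2313 and 2326 with no *IGFBP5* UMI to 6345, 9065 and 8264 with 10 or more, and *WFDC18* from 707, 558 and 1526 to 8.91, 13.1 and 33.8. All 3 genes moved step by step in the same direction in every cow. Among cells with at least 3 *IGFBP5* UMIs, *BDH1* was 214, 203 and 164 CPM in cells with no *GJA1* UMI and 357, 380.2 and 320.4 in those with 10 or more, and *RBP2* 5.83, 2.58 and 2.24 and 97.6, 173 and 107. *UACA* went from 624, 474 and 662 to 125, 100.1 and 119. *KRT15* showed no such order along *GJA1*, with 5609, 6978 and 6301 CPM at none and 5485, 6314 and 6197 at 10 or more. The bins held between 61 and 129 cells per cow in the first series, and the highest bin of either series was deeper than the bin at 0, with medians of 20640, 19322 and 15153 UMIs against 8566.5, 18121 and 13173 along *IGFBP5*. The part of depth in these orders was not tested.

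**Figure D4:**
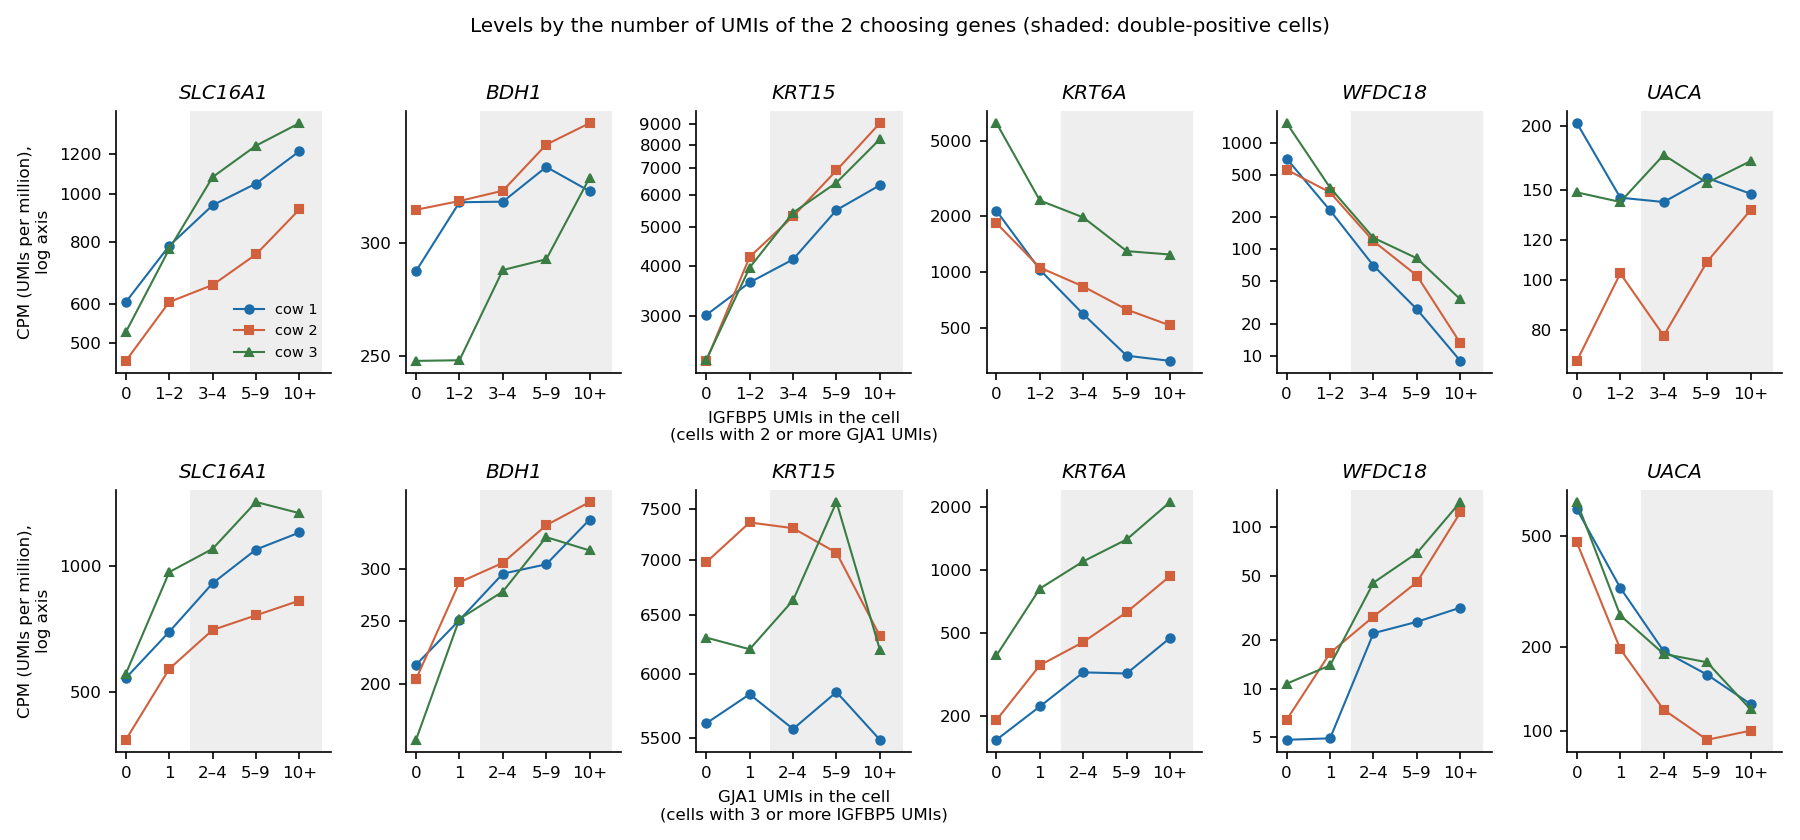
Levels of 6 genes in CPM (vertical log axes) by the number of *IGFBP5* UMIs among cells with 2 or more *GJA1* UMIs (upper row) and by the number of *GJA1* UMIs among cells with 3 or more *IGFBP5* UMIs (lower row), with 1 line per cow and the double-positive bins shaded. *SLC16A1* increases along *IGFBP5* in each cow, *WFDC18* falls along *IGFBP5* and *UACA* lies highest at 0 *GJA1* UMIs.

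Levels of *SLC16A1* just inside and just outside the thresholds are given without a test. In cells at exactly 3 *IGFBP5* UMIs it was 1042, 645 and 1051 CPM, and in cells at 2, 842, 626 and 822. At 2 *GJA1* UMIs it was 955, 676 and 1052, and at 1 *GJA1* UMI 695, 567 and 966. These groups held between 32 and 106 cells per cow and differed in depth, and in cow 2 the values at 3 and 2 *IGFBP5* UMIs lay close together.

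The double-positive cells varied among themselves. *SLC16A1* was broadly shared, with medians of 10.4, 7.23 and 12.7 UMIs per 10000 UMIs of the cell, 10th percentiles of 5.30, 3.08 and 5.89 and 90th percentiles of 17.6, 13.7 and 19.6 in the 3 cows. *FABP4* had a UMI in 40.6% to 50.2% of the double-positive cells of a cow, with medians of 0.322, 0 and 0 and 90th percentiles of 9.48, 8.24 and 7.49 UMIs per 10000. *BPIFA2C* had medians of 3.14, 0.620 and 0 UMIs per 10000, and 208 double-positive cells had at least 10 of its UMIs, 39.4%, 18.7% and 17.9% of them in the 3 cows. In the *IGFBP5*-positive cells without *GJA1* this share was 0.99%, 0.147% and 0.269%, and in the *GJA1*-positive cells without *IGFBP5* it was 41.2%, 31.7% and 23.4%.

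**Figure D5:**
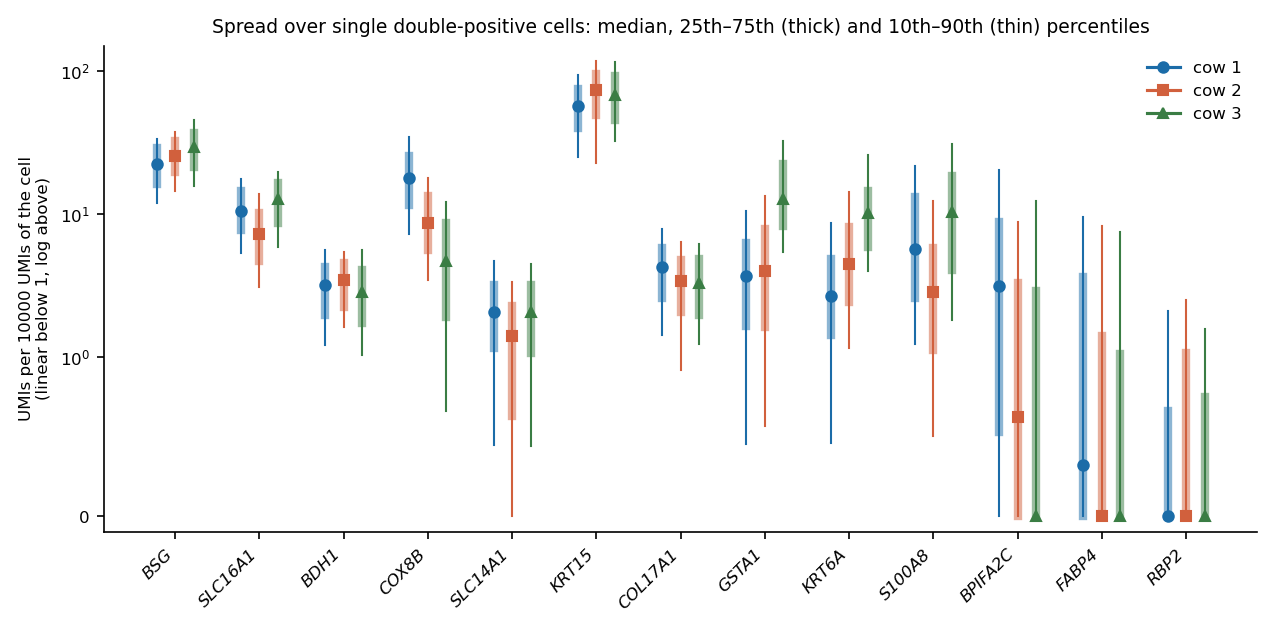
Spread of single double-positive cells of each cow for several genes, as UMIs per 10000 UMIs of the cell, with the median, the 25th to 75th percentiles (thick) and the 10th to 90th percentiles (thin). *SLC16A1* was above 0 at the 10th percentile in each cow, whereas the median of *FABP4* was at or near 0.

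The double-positive cells were also divided by *BPIFA2C* and *FABP4*. At least 10 UMIs of *BPIFA2C* alone were found in 91, 42 and 34 double-positive cells, of *FABP4* alone in 31, 36 and 16, of both in 30, 5 and 6, and of neither in 155, 168 and 168. These kinds were set after the values had been seen, on raw UMIs, and were not tested. *SLC16A1* was at a similar level in all of them, with 1166, 684 and 1147 CPM in the *BPIFA2C*-rich cells, 1054, 808 and 1283 in the *FABP4*-rich cells and 1082, 778 and 1278 in those with neither. *RBP2* stood at 111, 185 and 116 CPM in the *BPIFA2C*-rich cells and 37.6, 64.6 and 39.5 in those with neither, and *GJB2* at 21.7, 51.8 and 187 and 3.65, 3.00 and 28.5. Both genes were thus higher in the *BPIFA2C*-rich cells of each cow.

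Markers of other cell types were at low levels. The summed fibroblast markers had 0.337, 0.391 and 0.281 CPM in the double-positive cells and 0.607, 0.267 and 2.05 in all others, and *COL1A1*, *DCN*, *PDGFRA* and *PDGFRB* had no UMI in the double-positive cells. The summed endothelial markers had 3.54, 3.13 and 3.66 CPM against 4.43, 2.82 and 2.85, and those of smooth muscle 0.674, 0.587 and 0.562 against 1.21, 2.82 and 0.884. *PECAM1*, *CDH5*, *ACTA2*, *MYH11* and the leukocyte marker *PTPRC* had no UMI in the double-positive cells either. Immune markers summed to 16.3, 22.1 and 25 CPM against 35.9, 42.5 and 24.3. Of the 4 immune genes tested, 1 was called, *CD14*, a receptor of bacterial lipopolysaccharide, which was lower with a log2 fold change of -1.16 ± 0.14 (P_adj = 0.000171, edgeR). Melanocyte and neural markers summed to 6.40, 5.48 and 6.75 CPM against 5.64, 3.58 and 6.87.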

How the data were processed

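Single cells of ventral rumen sac epithelium of 3 cows were measured by 10× Genomics 3′ chemistry. For every gene and cell the authors deposited a whole UMI count, obtained with Cell Ranger 3.1.0 on genome ARS-UCD1.2 after their filters on cells, and a natural log value, ln(1 + count scaled to 10000), which served to check the matrix and to name its genes. Barcode suffixes were read as cow numbers. Depth was 38912809, 94856658 and 104189434 UMIs, and precision between cows rests on n = 3.

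Cells were chosen by the stated UMI minimums, and UMI counts were summed per cow and class. Quasi-likelihood tests of edgeR 4.0.16 in R 4.3.3 were run after TMM scaling and filterByExpr, and p-values were adjusted by Benjamini-Hochberg across the genes tested, on 2 classes (6 sums) or 4 classes (12 sums), leaving *IGFBP5* and *GJA1* out of the tests. The cow was a block, because sums of the same number come from the same cow, and deviations of the same cow correlated at 0.63, 0.55 and 0.57. The steps were tested on simulated counts. The members, lists and named genes were chosen with earlier results of these data known. Named genes are those the paper names for single cells, the largest called changes of each comparison that were in the same direction in 3 cows and at 50 CPM or more (12 up and 8 down against all other cells, 8 each way in the other comparisons), and up to 4 of each list. A few genes are not reported here, and the counts over lists include them. *COL17A1* was a basal marker, and the named markers at 0 were picked after their values were seen. The paper names DoubletFinder for finding doublets before deposit, no further doublets were removed here, and 46 double-positive cells had over 30000 UMIs. No sequences or coordinates are given, since the reference at hand holds none of the authors' build. Alternatives were DESeq2 1.42.0, no low-count filter, library size without TMM, no block, each cow left out, other cell rules, cells of 10000 to 20000 UMIs, cells with at least 1% mitochondrial UMIs and a fold threshold of 1.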

Additional observations from a re-analysis of the deposited data

How the results depend on the processing

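The mean share of double-positive cells, 4.92%, became 2.81% with a rule per 10000 UMIs, 3.14% with the stricter and 8.14% with the looser rule, and 2.82% without replicate 1. Counts of calls depended on the settings. Against all other cells (main 1770 higher, 1731 lower), 211 and 211 were called without the block on the cow, 1151 and 1028 within 10000 to 20000 UMIs and 373 and 655 beyond a log2 fold change of 1. DESeq2 gave 1123 lower and scaling without TMM 2742 lower. Against *IGFBP5*-positive cells without *GJA1* (1507 and 1452), the counts were 156 and 151 without the block, 1000 and 850 in the depth window and 286 and 467 beyond 1, and leaving out 1 cow gave 917 to 1182 lower. Against *GJA1*-positive cells without *IGFBP5* (261 and 233), they were 6 and 5 without the block, 112 and 88 in the depth window, 77 and 111 beyond 1, 135 and 398 without TMM, and 99 to 131 higher and 87 to 168 lower when 1 cow was left out. There 392 were higher without the filter, 169 with up to 2 *IGFBP5* UMIs allowed, and 140 lower without cells under 1% mitochondrial UMIs. The share of calls that were higher moved from 50.6% to 30.7% without TMM and to 36.9% without the filter against all other cells, from 50.9% to 38.1% without TMM in the second comparison, and from 52.8% to 25.3% without TMM, 39.8% with DESeq2 and 42.5% without replicate 2 in the third.

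Signs turned against all other cells for these genes, as log2 fold changes. With a rule per 10000 UMIs they were *WFDC18* (-0.11) and *LY6D* (-0.73), both called higher in the main fit, *TROAP* (-0.39), *SLC16A13* (0.088), *JAG2* (0.17), *A2ML1* (1.23), *AIF1* (-0.20), *VWF* (-0.24) and *MYLK* (0.22). With the stricter rule they were *TROAP* (-0.15), *JAG2* (0.020), *SPINK5* (-1.68) and *GRHL3* (-0.10), and with the looser one *KRT14* (0.074), *SPINK5* (-0.71) and *GJB5* (0.055). In the depth window they were *TROAP* (-0.31), *SLC16A13* (0.033), *SLC26A6* (-0.095) and *VWF* (-0.043). *KRT14* turned without the block (0.0033), *A2ML1* without cells under 1% mitochondrial UMIs (0.78) and *SPINK5* without TMM (-0.050). With 1 cow left out the values ran from -0.085 to 0.017 for *KRT14* and from -3.09 to 1.92 for *A2ML1* (turned without replicate 1), from -0.12 to 1.44 for *SPINK5* and from -2.13 to 0.43 for *MYLK* (turned without replicate 2), and from -0.59 to 0.077 for *MKI67* and from -0.093 to 2.30 for *MAL* (turned without replicate 3). Except *WFDC18* and *LY6D*, none of these was called in the main fit. The cause was not tested. Beside these, 67 named genes lost their call without the block, 15 with the rule per 10000 UMIs, 12 in the depth window and 12 with DESeq2. Depth limits genes with few UMIs in the double-positive cells.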
